A study of Mus musculus with 4 samples.

Results

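The 42 genes described here encode proteins that copy DNA or make its building blocks: 4 of origin licensing, 12 of the replicative helicase, 6 of the sliding clamp and its loader, 9 of the DNA polymerases and primase, 6 of single-strand binding, lagging-strand maturation and chromatin assembly, and 5 of deoxynucleotide synthesis. They were taken by symbol from a list that was chosen with earlier results of these data known. All 42 were found among the 25239 gene symbols of the count files, and all 42 passed the filter on low counts that left 13919 genes tested.

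The data are bulk RNA sequencing of CD4+ T cells isolated from mouse lung tumours, from a study that asked what loss of activin-A signalling does to these cells. The 2 groups compared, each with 2 libraries, were WT mice and CD4CreERT2+/-/Acvr1bfl/fl mice, called CD4/ALK4-KO, in which tamoxifen switches on Cre recombinase under the mouse Cd4 promoter and so removes floxed Acvr1b, the gene of the activin type I receptor ALK4. All mice were C57BL/6 males that received an ovalbumin-expressing line of Lewis lung carcinoma (LLC-OVA) into a vein, and lung tumours were taken 18 to 22 days later by the sample labels, while the study's methods give a slightly earlier range for this experiment. Whether the WT mice also received tamoxifen, and how many mice went into each library, is not given in the sources used here. Cre under the Cd4 promoter acts in cells that express Cd4, and the RNA came from cells enriched out of the tumour leukocyte fraction, which holds other cell types.

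Before each S phase, the origin recognition complex, Cdc6 and Cdt1 load the MCM ring onto origins. Cdc45 and the GINS complex then join the ring to form the active helicase, polymerase alpha-primase lays down primers, and polymerases delta and epsilon extend them while held by the PCNA clamp. Ribonucleotide reductase, thymidylate synthase, thymidine kinase and dUTPase set the supply of deoxynucleotides. Many of these genes are transcribed by E2F factors at the G1/S transition, and activated T cells are among the fastest dividing cells of the adult body.

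Library totals ran from 11823908 to 13943237 counts, and the 42 genes together took 0.339% and 0.338% of the counts in the WT libraries and 0.271% and 0.243% in the CD4/ALK4-KO libraries. The targeted gene did not separate the genotypes: Acvr1b had 426 and 342 counts in WT and 322 and 445 in CD4/ALK4-KO (0.16 ± 0.24 SE on the log2 scale, adjusted p = 0.66). These counts are gene totals and do not show whether the floxed exons were read. Cell markers separated them strongly. All 16 T cell markers were higher in CD4/ALK4-KO, with a summed level of 547 to 607 counts per 1e6 counts (CPM) in WT and 3063 to 3089 in CD4/ALK4-KO, and so were all 7 markers of cytotoxic T and NK cells (114 to 156 CPM against 497 to 571) and all 7 of B cells (55.1 to 68.6 CPM against 198 to 373). Macrophage and monocyte markers summed to 6237 to 7570 CPM in WT and 6491 to 6788 in CD4/ALK4-KO, above the T cell markers in every library, with 1 of 10 called. Of the tumour cell markers, Rhox5 (285 and 304 CPM in WT, 35.7 and 42.4 in CD4/ALK4-KO) and Plac1 were both lower in CD4/ALK4-KO, while Rhox6 and Rhox9 were at 0 in all 4 libraries. Fibroblast markers were lower for 4 of 7 genes (summed 6712 to 7307 CPM against 3965 to 4773) and lung epithelial markers lower for 5 of 8 and higher for 2 (889 to 899 CPM against 436 to 583). Neutrophil markers (1 of 7 higher, 845 to 1313 CPM against 837 to 1280), endothelial markers (1 of 6 higher and 1 lower, 54.6 to 71.2 CPM against 124 to 140) and erythroid markers (0 of 4 tested called, 2269 to 4783 CPM against 1312 to 3186) made up the rest. The part of these cell types in the results on replication genes was not tested, and in bulk RNA fewer dividing cells and less replication RNA per cell cannot be told apart.

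Replication and nucleotide synthesis genes were lower in CD4/ALK4-KO than in WT for 16 of the 42, led by Gins1, Gins2 and Cdc45 of the helicase. None was called higher and 26 did not pass, where calls are at an adjusted p under 0.05 from edgeR's quasi-likelihood test with Benjamini-Hochberg adjustment over all genes tested. Among all genes tested 15.4% were called lower and 17.4% higher, against 38.1% and 0 of the replication genes. At an unadjusted p under 0.05, 24 of the 42 passed, and the share of all genes tested at that threshold was not counted. The median log2 fold change of the 42 was -0.57, beside -0.01 for all genes tested, and 39 of the 42 values were below 0. Both CD4/ALK4-KO libraries lay below both WT libraries for 32 of the 42 genes, where 34.0% of all genes tested showed that order. The summed level was 3429 and 3481 CPM in WT and 2725 and 2330 CPM in CD4/ALK4-KO, and the 2 genotypes did not overlap.

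The number of calls and the genes called depended on single libraries, as did the calls over the whole table. With a library left out, the log2 fold change of Cdc6, a called gene, ran from -1.15 to -0.39. That of Pold2, which did not pass, ran from -0.99 to -0.21. DESeq2 called 14 lower, without Cdc6, Mcm10 and Prim1 and with Rrm1, and the fit with the replicate number as a block called 12, without those 3 and Tk1. Cdc45, Gins1, Gins2, Rfc4, Chaf1a and Dut were called lower in each of the 13 alternatives run. With a library left out, their log2 fold changes ran from -1.74 (Gins2) to -0.92 (Chaf1a). The share of all genes tested that was lower in all 13 alternatives was not counted. The 13 include scaling to T cell receptor genes, which made 93.3% of all genes tested lower. They also include a pairing of replicates chosen after seeing the data. The counts of Gins2 and Chaf1a are uncertain, as 67.3% and 52.5% of their exonic bases are shared with neighbouring genes. CD4/ALK4-KO replicate 2 was below replicate 1 for 32 of the 42 genes, while WT replicate 2 was below replicate 1 for 24.

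**Figure D1:**
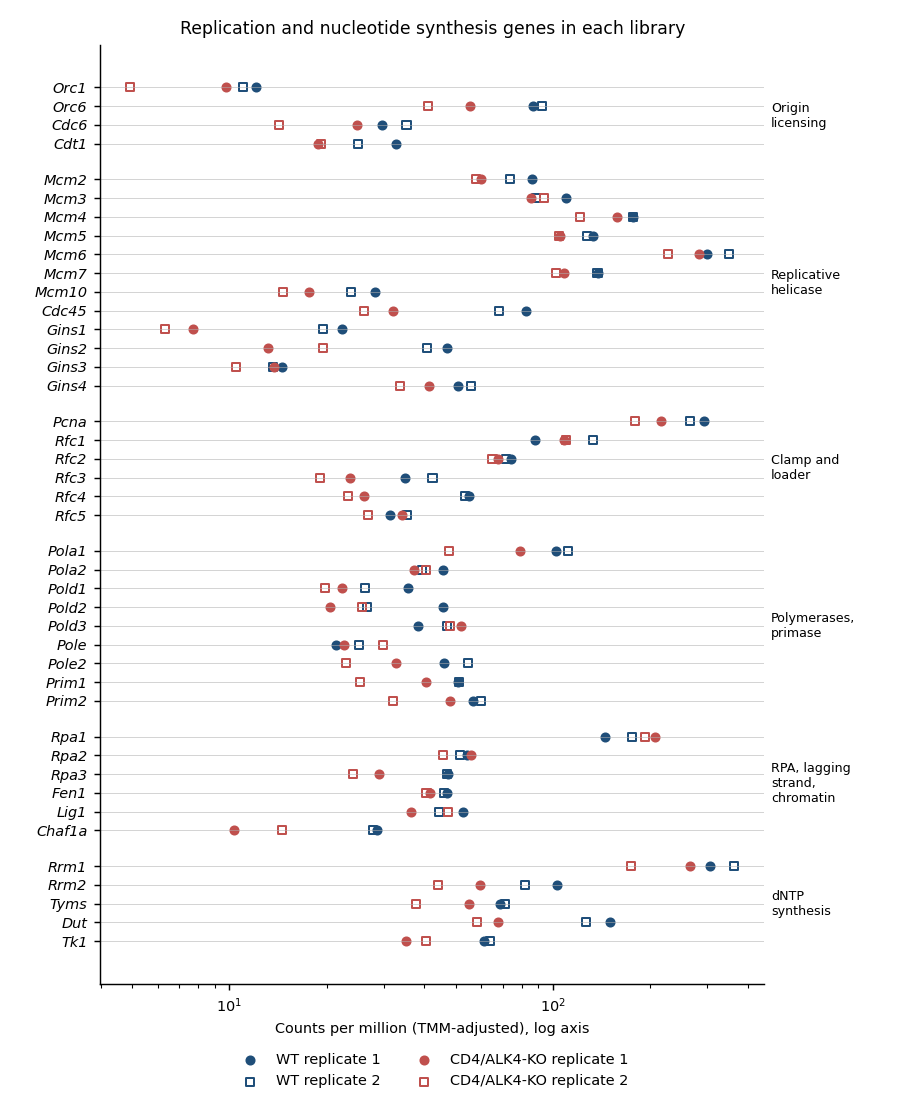
TMM-adjusted CPM on a log axis for each of the 42 genes in the 4 libraries, grouped by role; filled circles are replicate 1 and open squares replicate 2, blue for WT and red for CD4/ALK4-KO. The CD4/ALK4-KO libraries lie to the left of the WT libraries for 32 of the 42 genes, and the fitted difference is largest for Gins1, Gins2 and Cdc45.

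Levels were scaled by TMM, which assumes that most genes do not differ. When the libraries were instead scaled to the summed counts of 7 T cell receptor genes, all 42 genes were called lower, with a median of -2.93, but 93.3% of all genes tested were then called lower and the median of all genes was -2.37. This scale shifts all genes by about the same amount, so the distance of the 42 genes from the other genes is the same by construction. For the same reason every gene with a small positive value on the TMM scale, among them Rpa1, Pold3 and Pole, is negative on it.

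Promoter sequence was looked at because these genes are a textbook E2F group. RefSeq promoters (GRCm38.p6, 250 bases before to 50 after the gene start) were matched for 35 of the 42 genes. The E2F letters TTTCCCGC, TTTCGCGC, TTTGCCGC or TTTGGCGC, whose matches may overlap each other, were searched on both strands. They occurred in 14 of 35 promoters (40.0%), against 2.60% of all 27025 promoters in the table and 4.53% of promoters of tested genes. The motif was in 4 of 14 promoters of genes called lower (28.6%) and in 10 of 21 of the others (47.6%). The stretches below lie upstream of the RefSeq gene start and outside annotated exons of GENCODE M21, and show the match in capitals for 2 genes called lower, Cdc6 and Pola1, and for 2 MCM genes that did not pass. The Cdc6 stretch lies within the GENCODE span of the gene, which starts further upstream than the RefSeq start. Each is printed 5′ to 3′ on the strand of its gene.
Cdc6, chr11:98907995-98908038, plus strand: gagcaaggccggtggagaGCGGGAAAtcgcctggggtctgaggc
Pola1, chrX:93632268-93632311, minus strand: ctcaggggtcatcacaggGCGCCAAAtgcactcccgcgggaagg
Mcm5, chr8:75109338-75109385, plus strand: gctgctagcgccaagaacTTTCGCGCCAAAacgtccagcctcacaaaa
Mcm6 near site, chr1:128359727-128359770, minus strand: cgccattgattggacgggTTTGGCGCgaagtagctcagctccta
Mcm6 far site, chr1:128359786-128359833, minus strand: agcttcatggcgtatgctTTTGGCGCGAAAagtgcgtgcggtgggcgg
Mcm5 and the far Mcm6 site each hold 2 overlapping matches, 1 on either strand. These matches describe letters in the reference genome and not binding in these cells. The CCAAT box (CCAAT, either strand) was in 22 of 35 promoters (62.9%, against 41.1% of all and 42.7% of tested genes). The CHR element of late cell cycle genes (TTTGAA, either strand) was in 5 of 35 (14.3%, against 20.2% of all and 14.8% of tested genes), and in 17 of 24 promoters (70.8%) of 28 mitosis genes of which 24 were matched.

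In origin licensing, 2 of the 4 genes were called lower, with a median log2 fold change of -0.69 and all 4 values below 0. Beside this and the later role groups, 15.4% of all genes tested were called lower. Both CD4/ALK4-KO libraries lay below both WT libraries for 34.0% of all genes tested. Without WT replicate 1 or CD4/ALK4-KO replicate 2 the count was 1, without WT replicate 2 it was 0 and without CD4/ALK4-KO replicate 1 it was 3. Orc6, a subunit of the origin recognition complex, had 86.5 and 92.5 CPM in WT and 55.3 and 41.2 CPM in CD4/ALK4-KO. The libraries of the 2 genotypes did not overlap, and Orc6 fell by 0.89 on the log2 scale (SE 0.22, adjusted p = 0.0038), a call that was lost without WT replicate 2. Cdc6, the loader ATPase that recruits the MCM ring, had 29.6 and 35.3 CPM in WT and 24.9 and 14.3 CPM in CD4/ALK4-KO. Its log2 fold change of -0.73 (SE 0.27, adjusted p = 0.043) was carried by CD4/ALK4-KO replicate 2, and without that library it was -0.39 and did not pass. The Cdc6 call was also lost without either WT library and with the replicate number as a block. Orc1, the largest origin recognition subunit, had 12.1 and 11.0 CPM in WT and 9.75 and 4.94 CPM in CD4/ALK4-KO, and Cdt1, the partner of Cdc6, had 32.8 and 24.9 against 18.8 and 19.2 CPM. Both showed separate groups without passing the test (log2 fold changes of -0.66 and -0.60, adjusted p of 0.14 and 0.074).

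Of the 12 helicase genes, 4 were called lower, all of them factors that activate the MCM ring, and the median was -0.41. In the report's fit none of Mcm2 to Mcm7, the 6 subunits of the ring, was called. Their log2 fold changes ran from -0.44 for Mcm2 to -0.15 for Mcm3. Without CD4/ALK4-KO replicate 1, Mcm4 and Mcm6 were at -0.51 and -0.49. Without CD4/ALK4-KO replicate 2 they were at -0.17 and -0.21. Mcm6, the most abundant of them, had 300.1 and 350.1 CPM in WT and 283 and 226 CPM in CD4/ALK4-KO, with a log2 fold change of -0.35 ± 0.22 (SE, adjusted p = 0.23). Mcm4 had 176 and 177 CPM against 158 and 122 CPM (log2 fold change -0.34 ± 0.22 SE, adjusted p = 0.24). CD4/ALK4-KO lay below WT without overlap for 5 of the 6 subunits, as for 34.0% of all genes tested. The groups overlapped for Mcm3 (109.8 and 88.7 CPM in WT, 85.3 and 93.6 in CD4/ALK4-KO). Each subunit's share of the summed Mcm2 to Mcm7 counts overlapped between the genotypes, and 12.6% of the exonic bases of Mcm7 are shared with neighbouring genes.

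Cdc45, which joins the ring when an origin fires, had 82.6 and 68.3 CPM in WT and 32.0 and 26.1 CPM in CD4/ALK4-KO. Its lowest WT value was above its highest CD4/ALK4-KO value by more than the spread within either genotype, and it fell by 1.38 on the log2 scale (SE 0.23, adjusted p = 7.1e-05). Cdc45 lies at chr16:18780447-18811987 on the minus strand (GRCm38, GENCODE M21).

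GINS, the 4-subunit partner of Cdc45 in the active helicase, did not move as 1 unit. Gins1 (chr2:150905400-150931280, plus strand) had 22.3 and 19.4 CPM in WT and 7.73 and 6.32 CPM in CD4/ALK4-KO. This was the largest fall among the 42 genes, 1.57 on the log2 scale (SE 0.29, adjusted p = 2.3e-04). Gins2 (chr8:120578633-120589304, minus strand) had 46.9 and 40.8 CPM against 13.2 and 19.5 CPM, and fell by 1.42 (SE 0.25, adjusted p = 1.7e-04). Both genes were separate between the genotypes, but 67.3% of the exonic bases of Gins2 are shared with Gse1, a neighbour whose own log2 fold change was 0.63, and the library kit does not mark strand, so the Gins2 counts are uncertain. Gins3 had 14.5 and 13.7 CPM in WT and 13.8 and 10.5 CPM in CD4/ALK4-KO, with overlapping groups (log2 fold change -0.22). Gins4 had 50.7 and 55.7 CPM against 41.3 and 33.7 CPM, with separate groups and an adjusted p of 0.083 (log2 fold change -0.51). As a share of the counts of all 4 subunits, Gins1 made up 16.6% and 15.003% in WT and 10.2% and 9.03% in CD4/ALK4-KO, and Gins3 10.8% and 10.6% against 18.1% and 14.9%. These shares need no scaling between libraries, and the 2 genotypes did not overlap for either subunit. The uncertain Gins2 counts are part of the sums, however. Per 100 counts of Mcm2 to Mcm7, Gins3 had 1.54 and 1.43 in WT and 1.73 and 1.48 in CD4/ALK4-KO, with overlap.

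Mcm10, a scaffold needed for helicase activation, had 28.1 and 23.8 CPM in WT and 17.6 and 14.7 CPM in CD4/ALK4-KO (log2 fold change -0.68, SE 0.26, adjusted p = 0.048). The groups were separate, and the call sat at the threshold and was lost under 7 alternatives, among them 3 that left out a library and the replicate block.

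**Figure D2:**
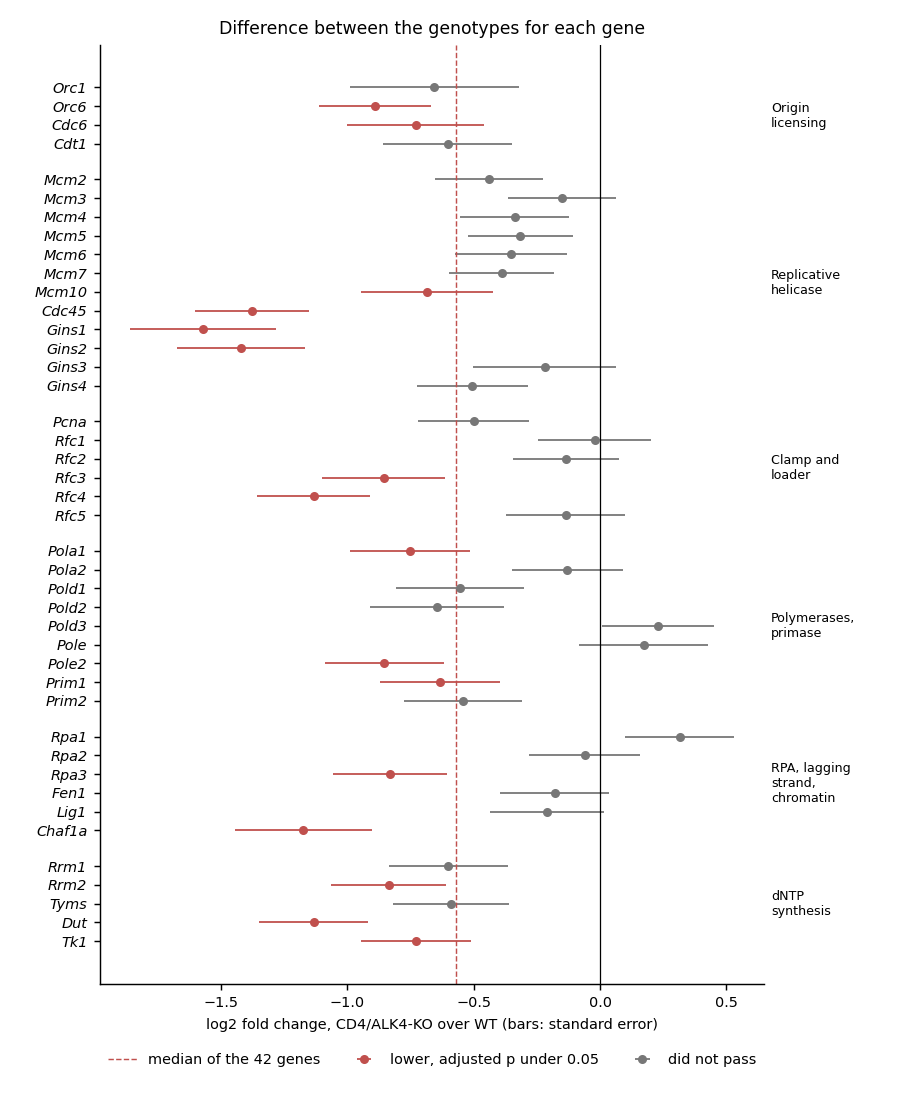
Fitted log2 fold change of CD4/ALK4-KO over WT for the 42 genes by role, with bars of 1 standard error; red points were called lower, grey points did not pass, and the dashed line is the median of the 42 genes at -0.57. Cdc45, Gins1 and Gins2 lie furthest to the left, and the MCM ring subunits lie between -0.44 and -0.15.

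Within a library, the ratio of 1 gene to another does not depend on scaling, and so the fork subunits were also set against the MCM ring. Per 100 counts of Mcm2 to Mcm7, Cdc45 had 8.76 and 7.16 counts in WT and 4.01 and 3.70 in CD4/ALK4-KO. Gins1 had 2.37 and 2.04 against 0.968 and 0.895. The 4 GINS genes together, with the uncertain Gins2 counts, had 14.3 and 13.6 against 9.51 and 9.92. Relative to the ring, these activators were lower with no overlap between the genotypes. Of the single-strand binding genes, Rpa1 had 15.3 and 18.4 per 100 in WT and 25.9 and 27.2 in CD4/ALK4-KO, and Rpa2 was also higher in both CD4/ALK4-KO libraries, while Rpa3 was lower (5.04 and 4.93 against 3.63 and 3.42). The clamp loader genes differed in direction relative to the ring as well. Rfc4 (5.82 and 5.603 against 3.27 and 3.29) and Rfc3 (3.69 and 4.45 against 2.96 and 2.70) were lower. Per ring count, Rfc2 and Rfc5 were higher in both CD4/ALK4-KO libraries, and Rfc1 overlapped. The ring genes themselves had negative log2 fold changes, so a gene that fell less than the ring is higher in these ratios. On the TMM scale the log2 fold changes of Rfc2, Rfc5 and Rpa2 were -0.13, -0.14 and -0.06. With 2 libraries a group an exact permutation test of such a ratio cannot go below a two-sided p of 0.333, so these ratios stand as descriptions.

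**Figure D3:**
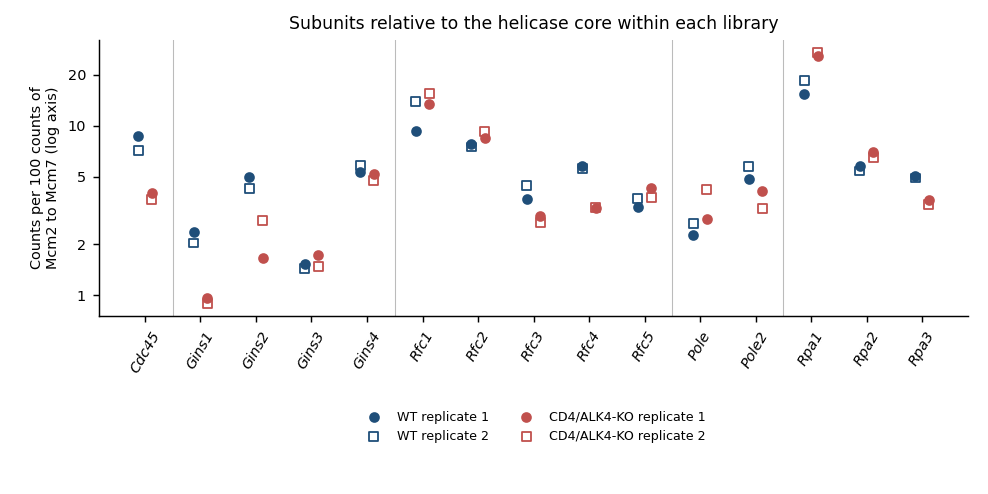
Counts of fork subunits per 100 counts of Mcm2 to Mcm7 in the same library, on a log axis, with vertical lines between complexes; filled circles are replicate 1, open squares replicate 2, blue WT and red CD4/ALK4-KO. Cdc45, Gins1, Gins2, Rfc4, Rfc3 and Rpa3 are lower in both CD4/ALK4-KO libraries, and Rpa1 is higher in both.

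The sliding clamp and its loader showed 2 of 6 genes called lower (1 without WT replicate 2) and a median of -0.32. Pcna, the clamp that tethers polymerases to DNA, had 292 and 266 CPM in WT and 215 and 179 CPM in CD4/ALK4-KO. Its groups were separate, but the log2 fold change of -0.50 (SE 0.22) had an adjusted p of 0.083, and 13.8% of its read-length stretches also occur in the pseudogene Pcna-ps2. Per kb of exonic length Pcna was the most abundant of the 42 genes in both genotypes, at a mean of 116 CPM per kb in WT and 82.2 in CD4/ALK4-KO.

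Clamp loader subunits differed among themselves. Rfc4 (chr16:23113943-23127737, minus strand) had 54.9 and 53.4 CPM in WT and 26.1 and 23.2 CPM in CD4/ALK4-KO and fell by 1.13 (SE 0.22, adjusted p = 4.9e-04). Rfc3 had 34.8 and 42.4 CPM against 23.6 and 19.0 CPM and fell by 0.86 (SE 0.24, adjusted p = 0.0092), a call lost without WT replicate 2. Rfc4 and Rfc3 were each separate between the genotypes, and 12.65% of the exonic bases of Rfc4 are shared with Eif4a2. Rfc1, the large subunit, had 88.2 and 132.8 CPM in WT and 108 and 109.6 CPM in CD4/ALK4-KO, so that the CD4/ALK4-KO values lay between the WT values (log2 fold change -0.02 ± 0.22 SE, adjusted p = 0.96). Rfc2 and Rfc5 had log2 fold changes of -0.13 and -0.14 and did not pass. Rfc2 was also separate (74.0 and 71.6 CPM in WT, 67.6 and 65.0 CPM in CD4/ALK4-KO), while Rfc5 overlapped. Of the counts of all 5 loader genes, Rfc4 took 19.4% and 15.9% in WT and 10.1% and 9.54% in CD4/ALK4-KO.

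Polymerase and primase genes had 3 of 9 called lower and a median of -0.55, and in each of the 3 the lowest library was CD4/ALK4-KO replicate 2. With a library left out, log2 fold changes ran from -1.13 to -0.44 for Pola1, from -1.10 to -0.62 for Pole2 and from -0.98 to -0.34 for Prim1. Pola1, the catalytic subunit of polymerase alpha, had 102 and 111 CPM in WT and 78.9 and 47.7 CPM in CD4/ALK4-KO (log2 fold change -0.75, SE 0.24, adjusted p = 0.017). Pole2, the second subunit of polymerase epsilon, had 46.0 and 54.6 CPM against 32.8 and 22.9 CPM (log2 fold change -0.85, SE 0.24, adjusted p = 0.0080). Prim1, the catalytic primase subunit, had 50.8 and 51.3 CPM against 40.5 and 25.4 CPM (log2 fold change -0.63, SE 0.24, adjusted p = 0.045). The groups were separate for all 3, but without CD4/ALK4-KO replicate 2 the log2 fold changes of Pola1 and Prim1 were -0.44 and -0.34 and neither passed. Both calls were also lost without either WT library, and that of Pole2 without WT replicate 2.

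Other polymerase subunits did not pass. Prim2, the regulatory primase subunit, had 56.6 and 60.03 CPM in WT and 48.1 and 32.0 CPM in CD4/ALK4-KO (log2 fold change -0.54, SE 0.23, adjusted p = 0.076). Pold1 and Pold2 of polymerase delta had log2 fold changes of -0.55 and -0.65, and Pola2 of -0.13. Pold2 was called lower under some alternatives, among them the fit with no filter on low counts. With a library left out it ran from -0.99 to -0.21. Pole, the catalytic subunit of polymerase epsilon, had 21.4 and 25.2 CPM in WT and 22.7 and 29.8 CPM in CD4/ALK4-KO, with overlapping groups. Pold3 had 38.3 and 47.2 CPM against 52.1 and 48.1 CPM, with both CD4/ALK4-KO libraries above both WT libraries on the TMM scale. Within polymerase epsilon the split between Pole and Pole2 gave Pole2 a share of 68.3% and 68.4% of their summed counts in WT and 59.1% and 43.5% in CD4/ALK4-KO.

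Single-strand binding, lagging-strand and chromatin assembly genes had 2 of 6 called lower (1 without either WT library), a median of -0.20 and the smallest difference in summed level (375 and 393 CPM in WT, 380 and 365 CPM in CD4/ALK4-KO). RPA coats single-stranded DNA as a trimer, and its 3 subunits had unlike values. Rpa1, the large subunit, had 145 and 176 CPM in WT and 206 and 192 CPM in CD4/ALK4-KO, and both CD4/ALK4-KO libraries were above both WT libraries on the TMM scale, although the log2 fold change of 0.32 ± 0.22 (SE) did not pass (adjusted p = 0.28). Rpa3, the smallest subunit, had 47.5 and 47.0 CPM against 29.0 and 24.1 CPM and fell by 0.83 (SE 0.23, adjusted p = 0.0072), a call lost without either WT library. Rpa2 had 54.4 and 51.7 CPM against 55.9 and 45.8 CPM, with overlapping groups (log2 fold change -0.06 ± 0.22 SE, adjusted p = 0.86). Rpa3 made up 19.3% and 17.1% of RPA counts in WT and 9.95% and 9.21% in CD4/ALK4-KO, with no overlap.

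Chaf1a, the large subunit of the chromatin assembly factor that deposits histones behind the fork, had 28.5 and 27.8 CPM in WT and 10.3 and 14.6 CPM in CD4/ALK4-KO. The genotypes were separate and Chaf1a fell by 1.18 (SE 0.27, adjusted p = 0.0020). It lies at chr17:56040439-56072289 on the plus strand, where 52.5% of its exonic bases are shared with Ubxn6 (log2 fold change -0.06), so its counts are uncertain. Fen1 and Lig1, which trim and seal Okazaki fragments, had log2 fold changes of -0.18 and -0.21 and did not pass. Of the Fen1 exonic bases, 84.2% are shared with neighbouring genes, among them Tmem258 (log2 fold change -1.06).

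Deoxynucleotide synthesis had 3 of 5 genes called lower, against 15.4% of all genes tested, and a median of -0.73. CD4/ALK4-KO lay below WT without overlap for all 5 genes, as for 34.0% of all genes tested. Leaving out CD4/ALK4-KO replicate 1 made the calls 5, while leaving out WT replicate 1 made them 1 and WT replicate 2 made them 2. Dut (chr2:125247190-125258608, plus strand) encodes dUTPase, which keeps uracil out of DNA and supplies the precursor of thymidylate. It had 149.7 and 126 CPM in WT and 67.5 and 58.1 CPM in CD4/ALK4-KO and fell by 1.13 (SE 0.22, adjusted p = 3.3e-04), the lowest WT value being above the highest CD4/ALK4-KO value by more than the spread within either genotype. Rrm2, the small subunit of ribonucleotide reductase, had 103 and 81.7 CPM against 59.3 and 44.1 CPM and fell by 0.84 (SE 0.23, adjusted p = 0.0069), a call lost without WT replicate 1. Tk1, the thymidine salvage kinase, had 61.1 and 63.9 CPM against 35.0 and 40.4 CPM and fell by 0.73 (SE 0.22, adjusted p = 0.013), a call lost without either WT library and under the replicate block. Rrm1, the large subunit of ribonucleotide reductase, had 305 and 363 CPM in WT and 266 and 175 CPM in CD4/ALK4-KO (log2 fold change -0.60, SE 0.24, adjusted p = 0.053). Tyms, thymidylate synthase, had 68.8 and 70.9 CPM against 55.1 and 37.7 CPM (log2 fold change -0.59, SE 0.23, adjusted p = 0.051). Both sat just outside the threshold, with the lowest value in CD4/ALK4-KO replicate 2.

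**Figure D4:**
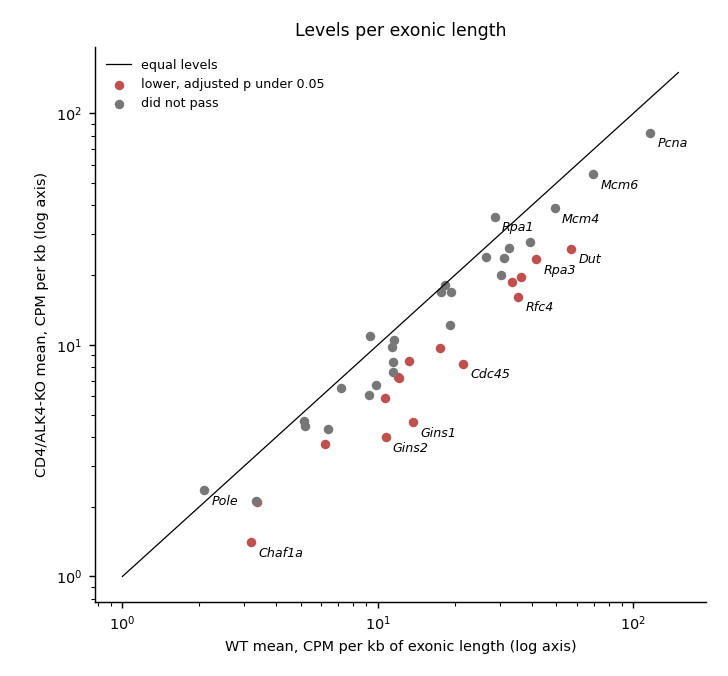
Mean CPM per kb of exonic length in CD4/ALK4-KO against WT for the 42 genes, both on log axes, with the line of equal levels; red points were called lower. Pcna and Mcm6 have the highest levels in both genotypes, Rpa1 lies above the line, and Dut, Cdc45, Gins1, Gins2 and Chaf1a lie well below it. The levels of Gins2 and Chaf1a are uncertain, as much of their exonic length is shared with neighbouring genes.

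Set per exonic length, most of the 42 genes held a different rank in each genotype, and these ranks are given with no test. Dut went from rank 3 of the 42 in WT (57.2 CPM per kb) to rank 7 in CD4/ALK4-KO (26.1 CPM per kb), Cdc45 from 15 to 25 and Gins1 from 21 to 34. Rpa1 went from rank 13 (28.7 CPM per kb) to rank 4 (35.7 CPM per kb), Pold3 from 32 to 19 and Rfc4 from 8 to 17. Pcna and Mcm6 held ranks 1 and 2 in both genotypes, while Pole, Chaf1a, Orc1 and Mcm10 were among the lowest. The full exonic length was used, shared bases included. Ranks of Chaf1a, Gins2 and Fen1 are therefore uncertain, as 52.5%, 67.3% and 84.2% of their exonic bases are shared with neighbouring genes.

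The other genes of the pathway were read from lists of the same kind. Beside the counts of this and the later related lists, 15.4% of all genes tested were called lower and 17.4% higher. Of 37 further replication factors, 11 were lower (29.7%) and 2 higher (5.41%), with a median of -0.30. Among them Top2a, the topoisomerase that untangles replicated DNA, had 604 and 677 CPM in WT and 444 and 274 CPM in CD4/ALK4-KO (log2 fold change -0.84, SE 0.24, adjusted p = 0.0088). Top1, which relaxes DNA ahead of the fork, had 138 and 154 CPM against 178 and 155 CPM (log2 fold change 0.19 on the TMM scale, adjusted p = 0.53). Dscc1 of the alternative clamp loader and the helicase Recql4 fell by 1.31 and 1.30. Mcm9, a relative of the ring subunits with a role in repair, was higher by 1.18 and Donson, a helicase assembly factor, by 1.04 on the TMM scale. Without WT replicate 1, 1 of the 37 was lower and 0 were higher, and without WT replicate 2 the counts were 5 and 1.

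Of 33 other nucleotide synthesis genes, 8 were lower (24.2%) and 3 higher (9.09%), with a median of -0.36. Dctd, which makes dUMP, fell by 1.17, and Nme2, a nucleoside diphosphate kinase, had 700.3 and 625 CPM in WT and 295 and 376 CPM in CD4/ALK4-KO and fell by 0.98. The genes that were higher on the TMM scale were Samhd1, which breaks deoxynucleotides down (311 and 360 CPM in WT, 721 and 696 CPM in CD4/ALK4-KO, log2 fold change 1.08), the mitochondrial thymidine kinase Tk2 (1.26) and the salvage kinase Dck (0.95). On the T cell receptor scale, with its shift of all genes, Samhd1 and Tk2 were at -1.29 and -1.10. Without WT replicate 1 the counts were 1 lower and 1 higher, without WT replicate 2 they were 3 and 3. Dropping CD4/ALK4-KO replicate 1 gave 13 and 3, and dropping CD4/ALK4-KO replicate 2 gave 8 and 5.

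Of 27 E2F, RB and G1/S regulators, 8 were lower (29.6%) and 7 higher (25.9%), with a median of -0.25. Cdk4, the kinase that opens G1, had 319 and 276 CPM in WT and 177 and 191 CPM in CD4/ALK4-KO and fell by 0.69 (SE 0.22, adjusted p = 0.018), and E2f1 and Ccne2 fell by 0.91 and 1.12. Rbl2, the p130 pocket protein of resting cells, had 34.4 and 38.0 CPM in WT and 118 and 125 CPM in CD4/ALK4-KO and was higher by 1.75 (SE 0.22, adjusted p = 2.5e-06). Ccnd2, the cyclin D of many lymphocytes, was higher by 1.52, Rb1 by 1.33, and the cell cycle inhibitor Cdkn1b also passed. On the T cell receptor scale, with its shift of all genes, Rbl2 and Ccnd2 were at -0.61 and -0.85. Without WT replicate 1 the list had 0 lower and 3 higher, and without WT replicate 2 it had 3 and 4. With the replicate block it had 4 and 4.

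Mitosis genes follow replication in the cell cycle and are the list most like it. Of 28, 22 were lower (78.6%) and 0 higher, with a median of -0.86. Cdk1, the mitotic kinase, had 202 and 190 CPM in WT and 78.6 and 60.5 CPM in CD4/ALK4-KO and fell by 1.49 (SE 0.22, adjusted p = 1.8e-05), and the cytokinesis gene Anln and the kinetochore gene Nuf2 fell by 1.27 and 1.44. Relative to the MCM ring the list was lower too, at 293 and 298 counts per 100 ring counts in WT and 216 and 199 in CD4/ALK4-KO. Mki67, the usual proliferation marker, stood apart with 118 and 174 CPM in WT and 179 and 203 CPM in CD4/ALK4-KO. On the TMM scale the fitted difference was 0.39 ± 0.23 (log2, SE), which did not pass (adjusted p = 0.20) and which, with the shift of all genes, was negative on the T cell receptor scale. It was called higher (0.50) without CD4/ALK4-KO replicate 1. The count of lower mitosis genes was 13 without WT replicate 1.

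**Figure D5:**
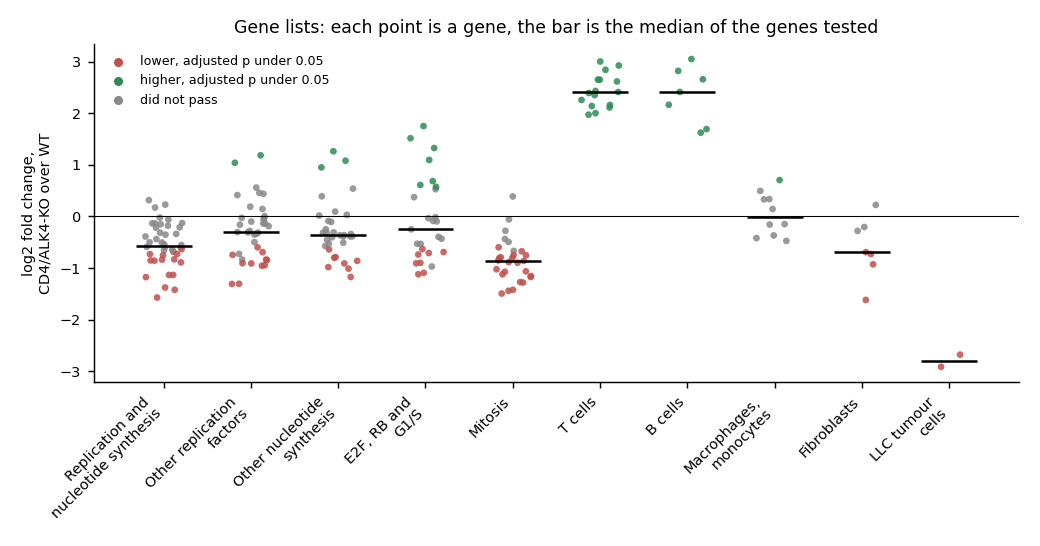
Log2 fold changes of CD4/ALK4-KO over WT for the 42 genes, 4 related lists and 5 cell marker lists; each point is a gene, red called lower, green called higher and grey not passed, and the bar is the median of the genes tested. The 42 genes have a median of -0.57 and the mitosis list of -0.86, T cell and B cell markers are all higher, and the 2 tumour cell markers tested are the lowest.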

How the data were processed

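CD4+ T cells from LLC-OVA lung tumours were profiled in 2 WT and 2 CD4/ALK4-KO libraries (TruSeq RNA v2, 75-base single-end reads). Per the authors' methods, reads were aligned to mm10 with HISAT2 and counted per gene with HTSeq in its intersection-nonempty mode; the deposited values are raw counts, 1 file per library. The gene annotation and the strand setting are not given in the sources used here. The kit does not mark strand. Each library's group came from its genotype label.

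Counts were tested with edgeR 4.0.16 in R 4.3.3: filterByExpr, TMM, robust glmQLFit and glmQLFTest with genotype as the only term, Benjamini-Hochberg over 13919 genes, threshold 0.05. The study's own tool, DESeq2 (1.42.0 here), was an alternative, as were other scalings and filters, the replicate number as a block, and leaving out each library. CPM is TMM-adjusted. Replicates of a genotype differed beyond counting noise (chi-square per degree of freedom 16.0 in WT against 28.7 in CD4/ALK4-KO), so each counts as 1 sample; p-values measure the spread between these samples, which may be partly technical. The script was tested on simulated data.

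The members and lists were chosen with earlier results of these data known. Named genes were, in each role group, the 2 with the highest mean count and the 2 with the largest absolute log2 fold change, plus every member called; of the related lists, the 2 with the highest mean count and the 2 with the largest change among those called, and Mki67. Other members and genes such as Mcm9, Donson, Dck, E2f1, Ccne2, Rb1, Cdkn1b, Plac1 and Gse1 were named after their values were seen. Locations, exonic lengths and shared 75-base stretches came from GENCODE M21 (GRCm38, the assembly of mm10) and promoters from RefSeq (GRCm38.p6).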

Additional observations from a re-analysis of the deposited data

How the results depend on the processing

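The members' median stayed negative under all 13 alternatives. With 2 libraries a genotype, calls near the threshold turned on single libraries. Leaving out 1 library leaves an arm with 1 sample that is assumed to vary like the other arm. Such fits gave 8 to 24 of the 42 genes lower (median -0.61 to -0.38), 0 to 3 in licensing (-1.12 to -0.51), 3 to 7 in the helicase, 1 to 3 in the clamp and loader (-0.45 to -0.25), 1 to 4 in the polymerases (-0.63 to -0.32), 1 to 2 in single-strand binding, lagging-strand and chromatin genes (-0.29 to -0.13), and 1 to 5 in deoxynucleotide synthesis. They gave 1 to 11 lower and 0 to 3 higher among other replication factors, 1 to 13 and 1 to 5 among other nucleotide synthesis genes, 0 to 9 and 3 to 8 among E2F, RB and G1/S regulators (median -0.31 to -0.14), and 13 to 23 and 0 to 1 among mitosis genes. Over the whole table they gave 754 to 2618 lower and 1103 to 2923 higher. Rfc1 ran from -0.29 to 0.30, Rpa2 from -0.18 to 0.070 and Acvr1b from -0.065 to 0.39. The 1 mitosis gene called higher was Mki67, without CD4/ALK4-KO replicate 1 (0.50).

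On the T cell receptor scale, 12986 genes were lower and 27 higher and the median of all genes moved from -0.01 to -2.37. All members of each role group were lower (4, 12, 6, 9, 6 and 5 genes, in the order of the report, with medians of -3.07, -2.77, -2.68, -2.91, -2.55 and -3.08; all 42 at -2.93). The related lists were all lower too, with 37, 33 and 27 genes lower, 0 higher in each, and medians of -2.66, -2.71 and -2.59, and -3.23 for mitosis. Rpa1 (-2.05), Top1 (-2.18), Samhd1 (-1.29), Tk2 (-1.10), Ccnd2 (-0.85), Rbl2 (-0.61), Mki67 (-1.99) and Acvr1b (-2.18) turned negative, and Cd4 was 0.27 and no longer passed. This scale divides by genes that themselves differ between the genotypes, which by construction lowers all others by about the same amount, so these sign changes say nothing of the genes singly.

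Upper quartile scaling gave a member median of -0.64 and an E2F list median of -0.32. Scaling to the total library gave -0.52 and -0.19. Such a change of scale shifts all genes by about the same amount by construction. Cdc45 was at -1.45 and -1.32, and Rpa1 at 0.25 and 0.37, against -1.38 and 0.32 in the report's fit. All 5 deoxynucleotide genes were lower with upper quartile scaling, with no filter and with at least 10 counts in every library. Licensing had 1 gene lower with the total library, with DESeq2 and with the replicate block. Rfc1 was 0.041 with the total library. The whole table had 2140 lower and 2422 higher in the report's fit, and 2428 and 2149 with upper quartile scaling.

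Deviations of libraries with the same replicate number correlated at -0.24 over all genes, so the numbers were not taken to pair the samples. With the replicate block 12 of the 42 genes were lower, the E2F list had 4 lower and 4 higher, and Rfc1 was 0.0083. With the numbers crossed, a pairing chosen after seeing the data, 27 of the 42 genes were lower (4 in licensing, 7 in the helicase, 6 in the polymerases, 5 in deoxynucleotide synthesis), 15 other nucleotide synthesis genes were lower, 4 other replication factors were higher and Rfc1 was 0.0077.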
